A study of Mus musculus with 7 samples.

Results

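The regions described here are stretches of open chromatin that were called in WT pre-proB cells, remained called in later B-cell stages, and were called in neither pre-proB library that lacked Erg. They were chosen by peak presence alone. Overlapping peaks of all 7 libraries were merged into 145247 union regions, and a region was a member if WT pre-proB and WT proB both held a peak there, as did at least 1 of Rescue proB and Rescue preB, and none in Erg KO pre-proB or Rescue pre-proB. The rule left 1874 members. Of the 145247 union regions, 90700 held a WT pre-proB peak, 59510 also a WT proB peak and 56829 also a later Rescue peak, and 2696 of these had no Erg KO pre-proB peak.

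Open chromatin was profiled with ATAC-seq in B-cell progenitors sorted from mice, and a peak is a stretch where sequenced fragments pile up above the background of the library. WT mice were Ergfl/fl, with floxed Erg alleles and no Cre, and gave pre-proB, proB and preB cells, the successive stages before a B cell carries surface immunoglobulin. Erg KO pre-proB cells came from Rag1CreT/+;Ergdelta/delta mice, in which Cre driven from the Rag1 locus deletes Erg in lymphoid cells, and Rescue cells from mice that carried this deletion with IgHVH10tar, a heavy chain allele that is already productively rearranged. Each of the 7 groups had 1 library, so the spread between mice was not measured, no test was made, and every interval given below is a 95% Wilson interval that covers counting error only. The controls carried neither the Cre allele nor the heavy chain allele. Between WT and Erg KO, effects of the Cre allele and of Erg loss thus cannot be told apart. The same holds between WT and Rescue for effects of both alleles and of Erg loss. The titles set the stages used here, but the source names disagree with them for the Rescue libraries: the library titled pre-proB has proB as its source, that titled proB has preB, and that titled preB has pre-proB. Read by source name, the rule left 458 regions instead of 1874.

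Erg is an ETS-family transcription factor, a class of proteins that bind a GGAA core in DNA. B-cell identity is set by E proteins such as Tcf3, by Ebf1, which opens chromatin at B-cell genes, and by Pax5, which commits the cell to the lineage. These factors switch on the surrogate light chain and the signalling chains of the pre-B-cell receptor, the complex through which a cell tests its new heavy chain at the step from proB to preB.

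The background pileup ranged from 3.49 to 4.60 fragments, the number of peaks from 76465 to 105649, and the lowest summit pileup called from 10 to 12 fragments. A region without a peak could thus still hold up to that many fragments. Of 9 B-cell markers (Cd79a, Cd79b, Ebf1, Pax5, Vpreb1, Igll1, Blnk, Cd22 and Rag1), all 9 had a promoter peak in every WT library and both later Rescue libraries. In Erg KO pre-proB cells 6 had one, without Cd79a, Pax5 and Vpreb1, and Rescue pre-proB had 7, without Pax5 and Vpreb1. Of the T-cell markers, 5 of 10 promoters were called in WT pre-proB and 7 of 10 in each Erg-deficient pre-proB library, whereas myeloid markers had 5, 5 and 6 of 10. The Erg gene body held between 30 and 40 peaks in every library and no member, and peaks outside the deleted exon do not check the deletion.

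Most members lay away from promoters, and 6 lay at a promoter of a listed B-lineage gene. Sequences of the GRCm38 plus strand are shown first for members at promoters of B-lineage genes. These promoter sites were called in WT pre-proB cells and in neither Erg-deficient pre-proB library. Cd22 also had another promoter peak, outside the member, in both Erg-deficient pre-proB libraries. Each is the 201 bp around the WT pre-proB summit, shortened where an annotated untranslated region began. Capitals mark matches, on either strand, to CAGGTG (E proteins), ATGCAAAT (Oct factors) and the EBF1 pattern (TCCC, any 2 bases, then GGGA).
Vpreb1 region, chr16:16869265-16869465: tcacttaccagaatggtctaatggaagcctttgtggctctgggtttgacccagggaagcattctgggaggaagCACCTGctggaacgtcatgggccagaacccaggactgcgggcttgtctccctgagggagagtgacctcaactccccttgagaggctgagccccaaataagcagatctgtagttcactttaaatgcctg
Vpreb2 region, chr16:17980166-17980366: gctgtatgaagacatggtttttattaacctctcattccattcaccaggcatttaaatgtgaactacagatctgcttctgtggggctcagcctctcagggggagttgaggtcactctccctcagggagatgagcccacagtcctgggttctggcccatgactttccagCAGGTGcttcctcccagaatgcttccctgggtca
Vpreb3 region, chr10:75948112-75948299: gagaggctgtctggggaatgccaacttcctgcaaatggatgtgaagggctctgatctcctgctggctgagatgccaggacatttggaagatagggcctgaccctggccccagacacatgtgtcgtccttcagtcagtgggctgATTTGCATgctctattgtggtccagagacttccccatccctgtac
Cd22 region, chr7:30879029-30879176: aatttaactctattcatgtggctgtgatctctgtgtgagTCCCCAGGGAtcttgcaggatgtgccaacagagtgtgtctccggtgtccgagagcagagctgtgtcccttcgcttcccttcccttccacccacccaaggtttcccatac
Pou2af1 region, chr9:51213271-51213471: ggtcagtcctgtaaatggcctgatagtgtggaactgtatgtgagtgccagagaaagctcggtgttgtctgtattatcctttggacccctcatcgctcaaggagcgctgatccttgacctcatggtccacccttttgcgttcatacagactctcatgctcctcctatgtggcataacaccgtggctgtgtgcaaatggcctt
Pax5 region, chr4:44710755-44710955: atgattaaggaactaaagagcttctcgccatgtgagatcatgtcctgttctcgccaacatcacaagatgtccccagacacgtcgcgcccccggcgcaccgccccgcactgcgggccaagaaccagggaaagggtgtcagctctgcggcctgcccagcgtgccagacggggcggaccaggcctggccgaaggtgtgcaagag
The Vpreb1 and Vpreb2 windows each held an E protein match, that of Vpreb3 an Oct match and that of Cd22 an EBF1 match. Those of Pou2af1 and Pax5 held none of the patterns marked. Because Vpreb1 and Vpreb2 are nearly identical, reads may have been split between them and their separate values are uncertain.

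The members with the highest WT pre-proB scores among those holding the EBF1 pattern were distal, and 4 of them are shown for that pattern. Capitals also mark TGTGGTT (RUNX), GCGTGAC (PAX5) and the ETS pattern (ACCGGAAG or ACAGGAAG). Each is named by the nearest coding gene.
Tmem64 region, chr4:15252585-15252785: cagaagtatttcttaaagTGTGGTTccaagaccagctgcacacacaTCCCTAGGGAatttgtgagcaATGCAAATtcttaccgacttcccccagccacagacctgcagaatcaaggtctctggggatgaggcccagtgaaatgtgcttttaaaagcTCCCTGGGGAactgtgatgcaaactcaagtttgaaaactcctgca
Plcl1 region, chr1:55739048-55739248: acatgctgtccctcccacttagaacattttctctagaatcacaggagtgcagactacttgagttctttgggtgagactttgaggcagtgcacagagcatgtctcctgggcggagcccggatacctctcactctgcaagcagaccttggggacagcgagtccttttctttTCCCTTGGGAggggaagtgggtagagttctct
Tmem163 region, chr1:127511409-127511609: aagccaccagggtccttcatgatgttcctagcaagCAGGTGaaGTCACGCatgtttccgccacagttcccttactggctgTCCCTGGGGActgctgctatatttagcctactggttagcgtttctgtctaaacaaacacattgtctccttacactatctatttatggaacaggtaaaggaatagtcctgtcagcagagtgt
Fmn2 region, chr1:174652884-174653084: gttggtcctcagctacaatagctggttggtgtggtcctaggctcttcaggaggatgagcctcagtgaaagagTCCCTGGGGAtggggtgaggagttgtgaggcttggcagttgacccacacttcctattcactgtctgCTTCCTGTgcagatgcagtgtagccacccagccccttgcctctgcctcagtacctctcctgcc
The Tmem64 window, 13146 bp from the nearest coding start site, held 2 EBF1 matches with a RUNX and an Oct match. The others shown lay between 151159 and 333227 bp from the nearest coding start site. Members near Bean1 and Gm17545, also among the highest scores with the pattern, lay 14257 and 3360 bp from it and are not shown.

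Among the 73007 regions with a WT proB peak and a later Rescue peak, 1874 (2.57%) were called in WT pre-proB alone of the 3 pre-proB libraries, 724 (0.992%) in Erg KO alone and 1082 (1.48%) in Rescue alone. The rule used these calls, so the counts describe the choice and nothing more. Erg KO and Rescue pre-proB shared 1766 regions that WT lacked, which is of the same order as the members. All 3 libraries held a peak in 53631 regions and none of them in 12606. In sorted bulk samples, fewer cells with an open region and less accessibility in every cell cannot be told apart, and this holds for each height below.

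**Figure D1:**
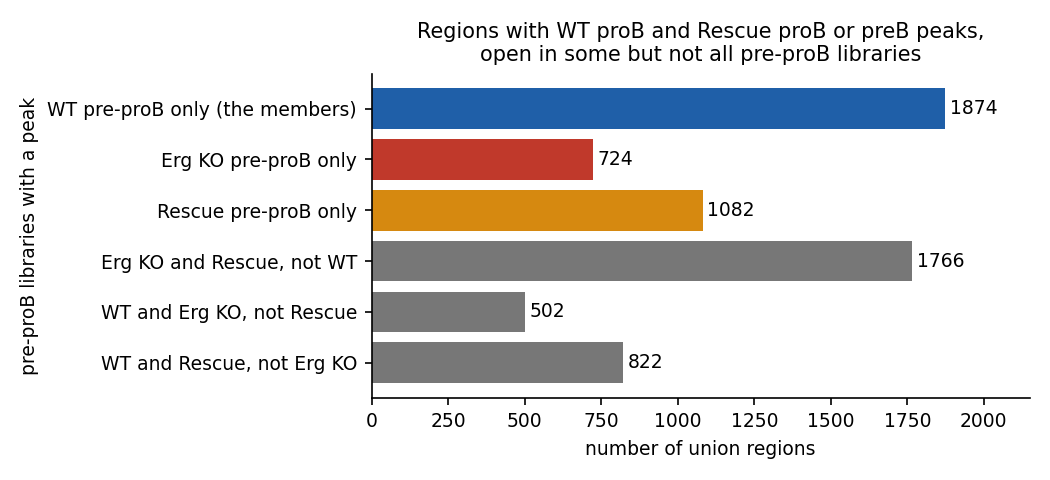
Bars give the number of union regions (x axis) for each combination of 1 or 2 of the 3 pre-proB libraries (y axis) that held a peak, among regions with a WT proB peak and a Rescue proB or preB peak. The members (1874) and the regions of Erg KO and Rescue without WT (1766) were the longest of these 6 bars, and Erg KO alone (724) and Rescue alone (1082) were shorter.

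In WT pre-proB cells the members were low peaks. Their fold, the summit pileup over the background with 1 added to each, ranged from 2.71 to 16.7 with a median of 4.26, and their median rank by score was 16.1% of the way up the WT pre-proB list. Summit pileups ran from 13 to 85 fragments around a median of 21. The 5 members with the lowest scores, nearest to D630003M21Rik, Maml3, Tmem243, Ube2cbp and Qrsl1, had a −log10 q of 2.27 and a pileup of 13, whereas among regions kept out by an Erg KO peak the 5 lowest such peaks had a −log10 q between 1.999 and 2.51, and among those kept out by a Rescue pre-proB peak between 1.89 and 2.39. Members just inside the rule and regions just outside it were thus of the same height.

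Scaled to the background of the other libraries, the WT pre-proB pileup was at least 1.5 times the lowest pileup called in both Erg-deficient pre-proB libraries in 1629 members (86.9%), at least 2 times in 815 (43.5%) and at least 3 times in 269 (14.4%). The nearest Erg KO pre-proB peak lay a median of 4066 bp away, and 353 members (18.8%) had a peak of either Erg-deficient pre-proB library within 1000 bp.

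In WT proB cells most of these regions were taller peaks. The WT proB fold of the members had a median of 27.5 (range 2.77 to 162) and a median rank of 81.8% (lower quartile 67.4%), and it exceeded the WT pre-proB fold in 1803 of 1874 members (96.2%). Regions called in all 3 pre-proB libraries had a median WT proB fold of 12.2, and regions called in none of them 5.91. WT pre-proB and WT proB summits lay a median of 37 bp apart, and within 100 bp of each other in 1615 members (86.2%), so the low peak stood where the tall one did.

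The WT preB library played no part in the rule. It held a peak in 1727 members (92.2%, 90.9 to 93.3), beside 88.6% of all 56829 regions with peaks in WT pre-proB, WT proB and later Rescue cells. The share was 63.7% (60.1 to 67.1) for regions of Erg KO pre-proB alone, 67.8% (65.0 to 70.6) for those of Rescue pre-proB alone and 75.6% (74.9 to 76.4) for those called in no pre-proB library. These classes were lower in WT proB than the members, with median folds between 4.80 and 5.91. At matched WT proB height the members did not stand above regions called in no pre-proB library. Up to 25 fragments, 61.3% (54.1 to 68.1) of members and 59.7% (58.3 to 61.1) of those regions had a WT preB peak. Above 50 and up to 100 the shares were 90.4% (86.3 to 93.4) and 91.99% (90.8 to 93.0), and above 200 and up to 400 all 501 and all 92 had one. Regions called in all 3 pre-proB libraries had 96.0% (95.6 to 96.4) above 50 and up to 100, above the interval of the members. Above 100 and up to 200 they had 99.55% (99.4 to 99.7), also above the 97.6% (96.1 to 98.6) of members. In the other bands the intervals of members and of these regions overlapped. With the Rescue stages read from the source names, 40.2% of the regions meeting the rule had a WT preB peak. The median WT preB fold of the members was 16.4.

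In Rescue cells, where Erg was deleted, 1620 members (86.4%) had a peak in both proB and preB, 151 in proB alone and 103 in preB alone. WT preB and both later Rescue libraries held a peak in 1554 members (82.9%). The median fold was 12.3 in Rescue proB and 14.0 in Rescue preB. By rank, the median in Rescue proB was 65.2%, beside 67.6% for regions called in all 3 pre-proB libraries. Between WT and Rescue at the proB stage, the fold of the members was a median of 1.74 times higher in WT, and the rank within the list was higher in WT for 1578 of 1771 members with both peaks (89.1%). For regions called in all 3 pre-proB libraries the ratio was 0.955 and the share 43.5%. Every other class was also higher in WT, by less than the members. The ratio was 1.25 (share 72.0%) for regions of WT and Erg KO without Rescue. It was 1.16 (67.1%) for those of WT and Rescue without Erg KO, and 1.16 (65.5%) for those called in no pre-proB library. At the preB stage the ratio of the members was 1.06 and the WT rank was higher for 58.7% of the 1637 members with both peaks. That share was 29.99% for regions called in all 3 pre-proB libraries and 45.4% for those called in none. WT proB height was not matched in these ratios. The median WT proB fold was 27.5 in members, 12.2 in regions called in all 3 libraries, and between 4.80 and 6.46 in the other classes. Members and all these classes were chosen with a WT proB peak required and a Rescue proB peak optional. The parts of height and of that choice in these ratios were not tested.

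**Figure D2:**
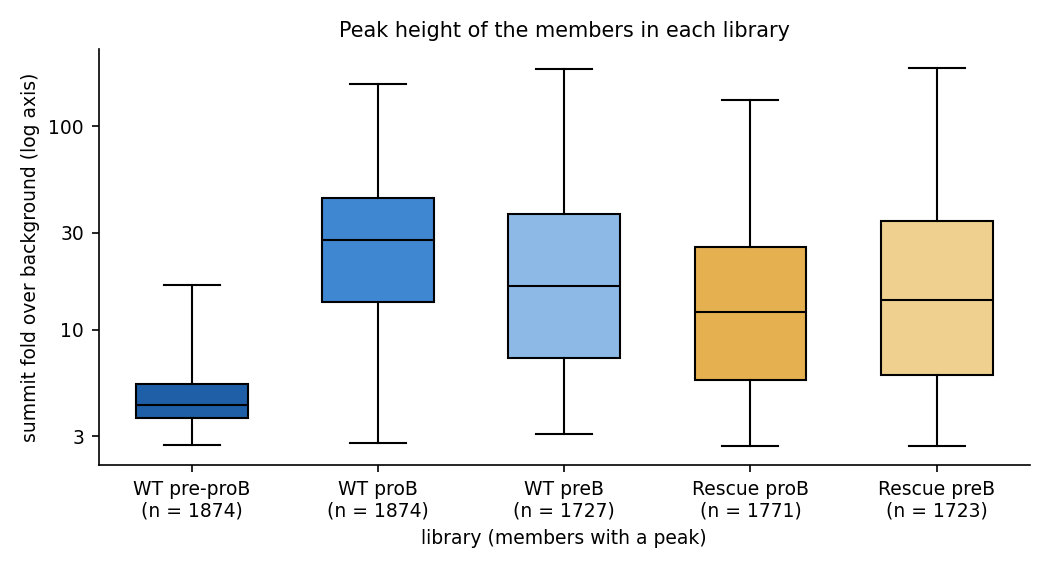
Boxes show the fold of the members (y axis, log scale) in each library that held a peak (x axis, number of members with a peak below), with the median, the quartiles and whiskers to the lowest and highest member. The WT pre-proB box (median 4.26) lay lowest, and the others had medians between 12.3 in Rescue proB and 27.5 in WT proB.

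The WT pre-proB peaks were a small part of the WT proB height. Above background, the WT pre-proB pileup of the members was a median of 13.4% of the WT proB pileup (quartiles 9.58% and 23.7%), beside 109% for regions called in all 3 pre-proB libraries. By WT proB pileup the median was 90.5% for members of up to 25 fragments, 21.7% for those above 50 and up to 100, and 12.4%, 9.41% and 8.77% in the bands above 100, above 200 and above 400. A member had to have a called WT pre-proB peak, and none had under 13 fragments, so the rule sets a high ratio in the low bands. The median WT pre-proB fold was 3.68, 3.68 and 3.88 in the first 3 bands, and 4.26, 5.62 and 8.92 in the 3 tallest, which held 592, 501 and 148 members.

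Regions without a peak in either Erg-deficient pre-proB library were called in WT pre-proB according to their proB height. The share called was 3.68% (3.18 to 4.24) of 4925 regions with a WT proB pileup of up to 25 fragments and 10.3% (9.15 to 11.5) of 2643 above 50 and up to 100. It was 39.4% (36.9 to 41.9) of 1503 above 100 and up to 200, 84.5% (81.4 to 87.2) of 593 above 200 and up to 400, and 100% (97.5 to 100) of the 148 above 400. The regions counted as called are the members, which the rule chose by these calls, so the shares describe that choice. The bands were set by a WT library, and above 400 fragments WT pre-proB held a peak in 100% of all 4114 regions. The 100% of the 148 was thus fixed in advance.

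The same count for the other libraries was lower in the taller bands than in the lowest. It used the calls of the rule in bands set by a WT library, so these shares describe that choice too. Of regions called in neither WT nor Rescue pre-proB, Erg KO pre-proB held a peak in 7.54% of 5131 in the lowest band and in 1 of 93 above 200 and up to 400. Of regions called in neither WT nor Erg KO, Rescue pre-proB held one in 10.03% of 5273 and in 4 of 96. Few such regions were left above 200 and none above 400, because WT pre-proB held a peak in nearly all regions there. By this count the 2 Erg-deficient libraries could thus not be compared with WT above 200 fragments. Over all regions of the lowest band WT pre-proB had the smallest share called (56.2%, beside 61.9% in Erg KO and 63.4% in Rescue), and above 200 and up to 400 the largest (98.8%, beside 91.9% and 92.3%). Whether these low WT peaks come from many pre-proB cells or from a small number of cells with proB-like chromatin in the sorted population was not tested.

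**Figure D3:**
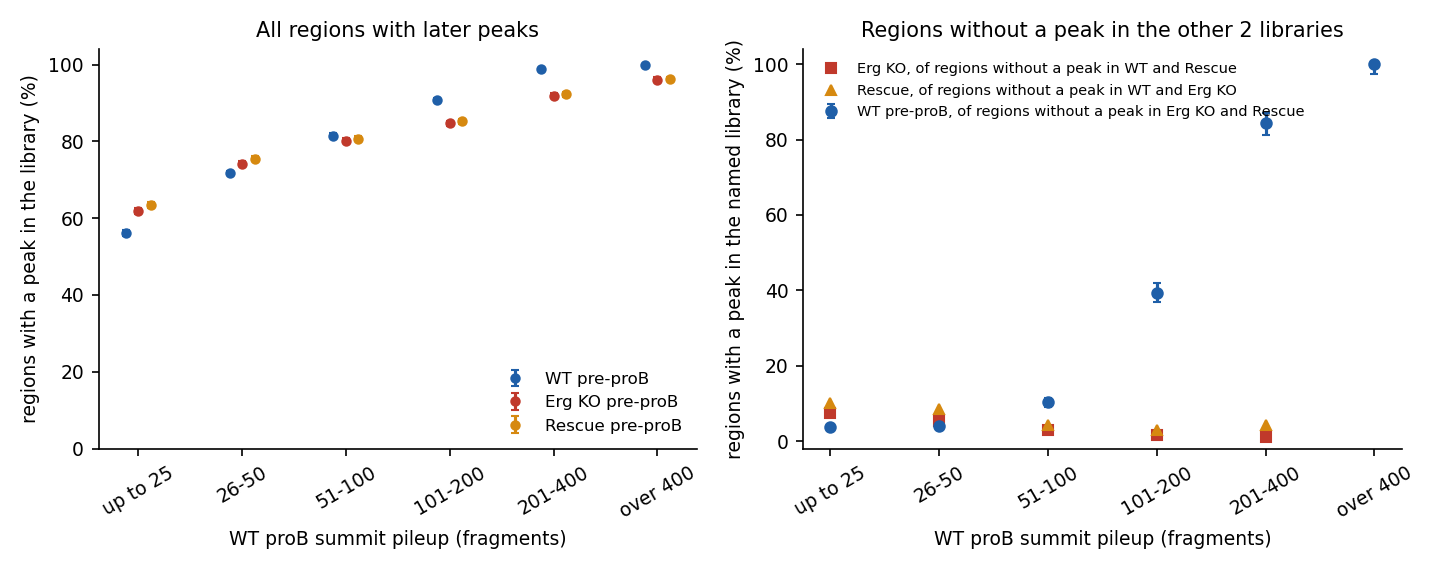
The x axes give the WT proB summit pileup in 6 bands. Points at left give the share of all regions with a WT proB and a later Rescue peak that held a peak in each pre-proB library, and at right the share among regions without a peak in the other 2 libraries, with 95% Wilson intervals for counting error on all points at left and on WT pre-proB at right. At right WT pre-proB rose from 3.68% to 100%, whereas Erg KO fell from 7.54% to 1.08% and Rescue from 10.03% to 4.17%. The regions called at right in WT pre-proB are the members, which the rule chose by these calls. Few regions without a WT pre-proB peak were left in the taller bands, so the Erg KO and Rescue points there describe that choice too.

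Most members were distal. By the WT pre-proB summit, 138 members (7.36%, 6.27 to 8.64) lay within 1000 bp of an annotated start site, 994 (53.0%) in an intron, 92 (4.91%) in an exon and 650 (34.7%) between genes. By the WT proB summit, which every class compared has, the promoter share was 7.15% (6.07 to 8.41) of members, 27.3% (27.0 to 27.7) of regions called in all 3 pre-proB libraries and 8.03% (7.57 to 8.52) of those called in none. Regions of Erg KO and Rescue without WT had 12.2% (10.8 to 13.8). The median distance to the nearest coding start site was 27568 bp for members and 13092 bp for regions called in all 3 libraries. The promoter intervals of the members and of regions called in no pre-proB library overlapped, and that of regions called in all 3 lay above both. Members were found on every chromosome, from 46 on chromosome 19 to 159 on chromosome 1 among the autosomes, and 514 (27.4%) had another member within 50000 bp.

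The EBF1 pattern was more frequent in the members than in each other class taken whole. Within 100 bp of the WT pre-proB summit it was present in 154 members (8.22%, 7.06 to 9.55), beside 1.55% of all union regions at the summit of their highest scoring peak. The same letters read backwards, which keep the base composition, were present in 0.747% of members. The share was 5.36% with peak lists cut to equal length, 2.18% with short lists and 2.40% with the Rescue stages read from the source names. At the WT proB summit the share was 8.59% (7.41 to 9.95) in members, 1.05% (0.963 to 1.14) in regions called in all 3 pre-proB libraries, and 0.906% (0.558 to 1.47) in those of Erg KO and Rescue without WT. It was 1.10% and 1.39% in those of Erg KO alone and Rescue alone. Regions called in no pre-proB library had 5.74% (5.35 to 6.16).

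The share in the members rose with WT proB height, from 1.66% (3 of 181) up to 25 fragments to 10.3% (61 of 592), 12.8% (64 of 501) and 12.8% (19 of 148) in the bands above 100, 200 and 400. Regions called in no pre-proB library had 12.4% (113 of 911) above 100 and up to 200, with an interval that overlapped that of the members. Above 50 and up to 100 the members were lower (3.32%, 1.76 to 6.19, beside 8.85%, 7.78 to 10.1), and above 200 and up to 400 the intervals again overlapped (12.8%, 10.1 to 15.98, beside 9.78%, 5.23 to 17.6). In no band that held both did the members' interval thus lie above that of regions called in no pre-proB library. Regions called in all 3 pre-proB libraries stayed between 0.550% and 1.58% in every band. In bands of WT pre-proB fold the members had 5.40% up to 4, 9.40% above 4 and up to 6, 11.9% above 6 and up to 10, and 6.25% of the 64 above 10, whereas regions called in all 3 libraries had between 0.570% and 0.962%. The difference was thus present at matched height in WT pre-proB as well. Outside promoters the shares were 8.68% in members and 1.06% in regions called in all 3 libraries.

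Matches were concentrated at the summit. In members, 57.1 matches per 1000 windows had their centre within 50 bp of the WT pre-proB summit, 35.2 between 50 and 100 bp, and 3.202 between 450 and 500 bp. Counting both strands as the same, CA was the most common middle pair (62 of 166 matches), followed by AG (35) and AA (26). Members with the pattern were taller than those without, with median folds of 4.85 and 4.26 in WT pre-proB, 37.3 and 26.2 in WT proB, and 21.2 and 11.4 in Rescue proB.

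The ETS pattern was present in 222 members (11.8%, 10.46 to 13.4) at the WT pre-proB summit, beside 6.80% of all union regions. At the WT proB summit it was in 12.1% (10.7 to 13.7) of members, 7.98% (7.75 to 8.21) of regions called in all 3 pre-proB libraries, 8.17% (7.71 to 8.66) of those called in none and 7.08% (5.97 to 8.37) of those of Erg KO and Rescue without WT. It was in 8.17% (6.08 to 10.89) of regions of WT and Erg KO without Rescue. Regions of WT and Rescue without Erg KO had 10.22% (8.33 to 12.48), and both intervals overlapped that of the members. The pattern is shared by many ETS factors and does not single out Erg. CAGGTG, the E protein pattern, was in 26.9% (24.99 to 29.0) of members, beside 19.3% (19.0 to 19.7) and 18.3% (17.6 to 19.0) of regions called in all 3 pre-proB libraries and in none. Taken whole, the members and these last classes had intervals that did not overlap for either pattern. At matched WT proB height, the ETS intervals of members and of regions called in no pre-proB library overlapped in every shared band. Above 100 and up to 200 fragments they were 11.15 to 16.7 and 8.21 to 12.1. ETS intervals of regions called in all 3 lay below the members from 25 to 200 fragments and overlapped elsewhere. For E protein, members lay above regions called in none except from 25 to 50 and 200 to 400.

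The Oct pattern was in 4.59% (3.73 to 5.63) of members, above the 1.77% (1.66 to 1.89) of regions called in all 3 libraries and not above the 5.73% (5.34 to 6.15) of those called in none. GAGGAAGT, bound by PU.1, a myeloid and lymphoid ETS factor, was less frequent in members (4.80%, 3.92 to 5.87) than in regions called in all 3 libraries (7.34%, 7.13 to 7.57). So were AGGGGGC, part of the CTCF site (4.91% beside 8.66%), and the ETS-IRF composite GGAA, any 2 bases, GAAA (1.92% beside 4.72%), which can overlap an ETS match. Regions called in no pre-proB library had PU.1, CTCF and ETS-IRF shares of 5.64% (5.25 to 6.06), 4.43% (4.08 to 4.80) and 2.47% (2.21 to 2.75). For each of these patterns that interval overlapped the interval of the members. WT proB height was not matched in these shares. RUNX matches (TGTGGTT) were in 9.98% (8.70 to 11.4) of members and 9.43% (9.19 to 9.69) of regions called in all 3 libraries, with overlapping intervals. PAX5 (GCGTGAC) and FOXO (TGTTTAC) letters were in 1.81% and 3.42% of members. None of the 10 patterns was found in 788 members (42.0%).

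**Figure D4:**
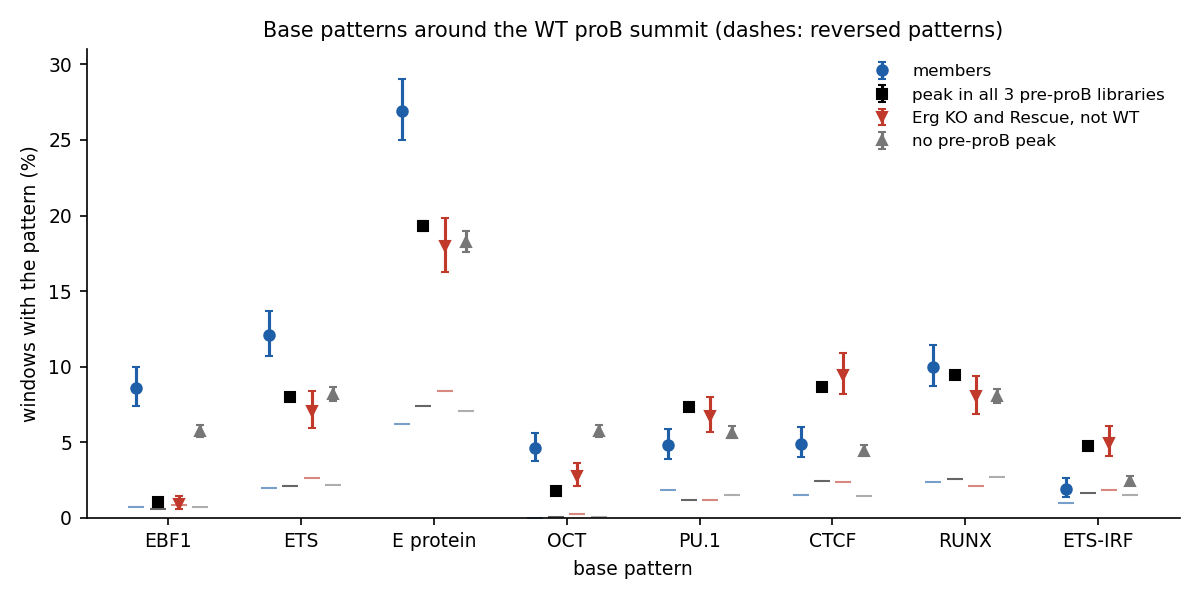
The y axis gives the share of windows of 201 bp around the WT proB summit that hold each pattern (x axis), with 95% Wilson intervals for counting error, in members and 3 other classes, and dashes give the same for the pattern read backwards. Members lay highest for EBF1 (8.59%), ETS (12.1%) and E protein (26.9%), and below regions called in all 3 pre-proB libraries for PU.1, CTCF and ETS-IRF.

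Members lay at 1341 of 21938 coding genes (6.11%), counting the gene body extended by 10000 bp on each side. Of 70 B-lineage genes in 4 lists, 20 (28.6%) had at least 1 member. The number was 5 with short peak lists, 4 with the Rescue stages read from the source names, and 10 when the WT pre-proB pileup had to be at least 2 times the lowest called in both Erg-deficient pre-proB libraries. The lists were chosen with earlier results of these data known, and longer genes can hold more members: the median length was 31.8 kb for the listed genes and 17.4 kb for all coding genes. Regions called in all 3 pre-proB libraries were found at 69 of the 70, and at 75.4% of all coding genes, and regions called in no pre-proB library at 45 of the 70 and 26.5%. By list, 11 of 20 genes of the pre-B receptor and its signalling had a member, 7 of 24 B-lineage transcription factors, 1 of 11 recombination genes and 1 of 15 surface markers. Of markers of other cell types, T cells had 1 of 10 (Cd247), plasmacytoid dendritic cells 2 (Runx2 and Tcf4), myeloid cells 1 (Itgam), stem and progenitor cells 1 (Meis1), and NK and erythroid cells 0.

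The 29 distinct members at the listed genes had a WT pre-proB fold between 2.91 and 8.72 (median 4.26) and a WT proB fold between 6.46 and 91.8 (median 36.4). All 29 also held a peak in each of the other later libraries, and the fold was higher in WT proB than in Rescue proB in 26. Genes of the pre-B receptor are described first. The member at the Vpreb1 promoter (chr16:16868794-16869797), which encodes a part of the surrogate light chain, had a fold of 8.53 in WT pre-proB, of 55.6 and 21.04 in the WT proB and preB libraries, and of 25.2 and 16.9 in Rescue proB and preB. Its fold was thus highest in WT proB. It also lies 5380 bp upstream of Igll1, the other part of the surrogate light chain, and was the only member there.

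A separate peak upstream of the Vpreb1 promoter was called in all 3 pre-proB libraries, with a fold of 58.0 in WT, 59.6 in Erg KO and 69.0 in Rescue. Of these neighbouring sites, the promoter was thus called in WT alone and the upstream site in each library. The Vpreb2 promoter member (chr16:17979966-17980729) had a fold of 4.26 in WT pre-proB cells, then of 36.6 in WT proB and 9.36 in Rescue proB. That of Vpreb3 (chr10:75947652-75948710), which encodes a partner of newly made heavy chains, had 3.30, 27.9 and 18.3.

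Cd79b, the signalling chain that pairs with Cd79a, had 2 members downstream of its start site at 4269 and 6111 bp, beyond the gene's end. Their fold was 5.82 and 6.20 in WT pre-proB, 52.1 and 52.4 in WT proB, and 45.7 and 49.2 in Rescue proB. The Cd79b promoter itself was called in every library. Cd22, an inhibitory co-receptor, had a member 57 bp from a start site (fold 3.68 in WT pre-proB and 38.4 in WT proB). Outside that member, a Cd22 promoter peak was called in both Erg-deficient pre-proB libraries. Another Cd22 member lay 14876 bp downstream, which is nearer to Ffar1.

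Kinases and adaptors of the receptor had intronic members. Bank1, a scaffold protein, had 2 members in intron 1, and the taller one rose from a fold of 4.07 in WT pre-proB to 79.9 in WT proB and 98.8 in Rescue preB. Lyn, a Src-family kinase, had 1 in intron 4, with a fold of 3.68 in WT pre-proB cells, of 6.46 in WT proB and of 20.8 in Rescue preB. Btk, a kinase downstream of the receptor, and Plcg2, a phospholipase that it activates, each had 1 member in intron 5, with WT proB folds of 33.4 and 24.7. Pik3ap1, which links receptors to PI3-kinase, had 1 member 6000 bp upstream with a WT proB fold of 61.8.

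Among transcription factors, Pou2af1, the coactivator of Oct factors, had the tallest member at a listed promoter in proB cells (chr9:51212374-51214724, 337 bp upstream of the start site). Its fold was 7.37 in WT pre-proB, rising to 91.8 and 122 in the WT proB and preB libraries and to 76.2 and 112 in those of Rescue. Within 10000 bp of its summit it was the only peak in WT pre-proB, and neither Erg-deficient pre-proB library had any. Pou2f2, an Oct factor, had 2 intronic members with WT pre-proB folds of 3.88 each.

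Pax5 had 2 members. The promoter member, 368 bp upstream of a start site, had a fold of 3.68 in WT pre-proB cells, then of 21.6 in WT proB and 16.9 in Rescue proB. The other, in intron 1, was among the lowest in WT pre-proB (fold 2.91, −log10 q 2.82) and rose to 11.4 in WT proB. Ebf1 had 3 members in intron 10, between 328674 and 333193 bp downstream of its start site. The tallest had a fold of 8.72 in WT pre-proB, of 68.1 and 62.2 in WT proB and preB cells, and of 51.0 and 57.4 in Rescue proB and preB, and the other two had WT proB folds of 17.9 and 25.8. No Erg KO or Rescue pre-proB peak was called within 10000 bp of the tallest.

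Tcf3, which encodes E proteins, had 1 member in intron 2 with a fold of 7.56 in WT pre-proB and 71.6 in WT proB. For Lef1 and Runx1, regulators of early lymphoid cells, each member had a lower fold in Rescue proB than in WT proB. The same held for 26 of the 29 members at listed genes. The Lef1 member 8127 bp upstream had a fold of 55.2 in WT proB and 45.2 in WT preB, and of 10.2 and 13.0 in Rescue proB and preB. Another, 115432 bp downstream of the Lef1 start site and nearer to Hadh (43872 bp), had 9.97 and 3.95 in WT proB and preB, and 5.57 and 4.54 in Rescue. The Runx1 member in intron 2 had 39.5 in WT proB and 9.58 in Rescue proB, with 10.52 and 3.92 at the preB stage. The other Runx1 member, 2044 bp upstream, had 9.78 and 4.23, with 7.01 and 3.92 at the preB stage. Xrcc4, which joins DNA ends in recombination, had 1 intronic member with a fold of 4.26 in WT pre-proB, and Cd93, a receptor of early B cells, 1 at 7846 bp upstream with 4.07.

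**Figure D5:**
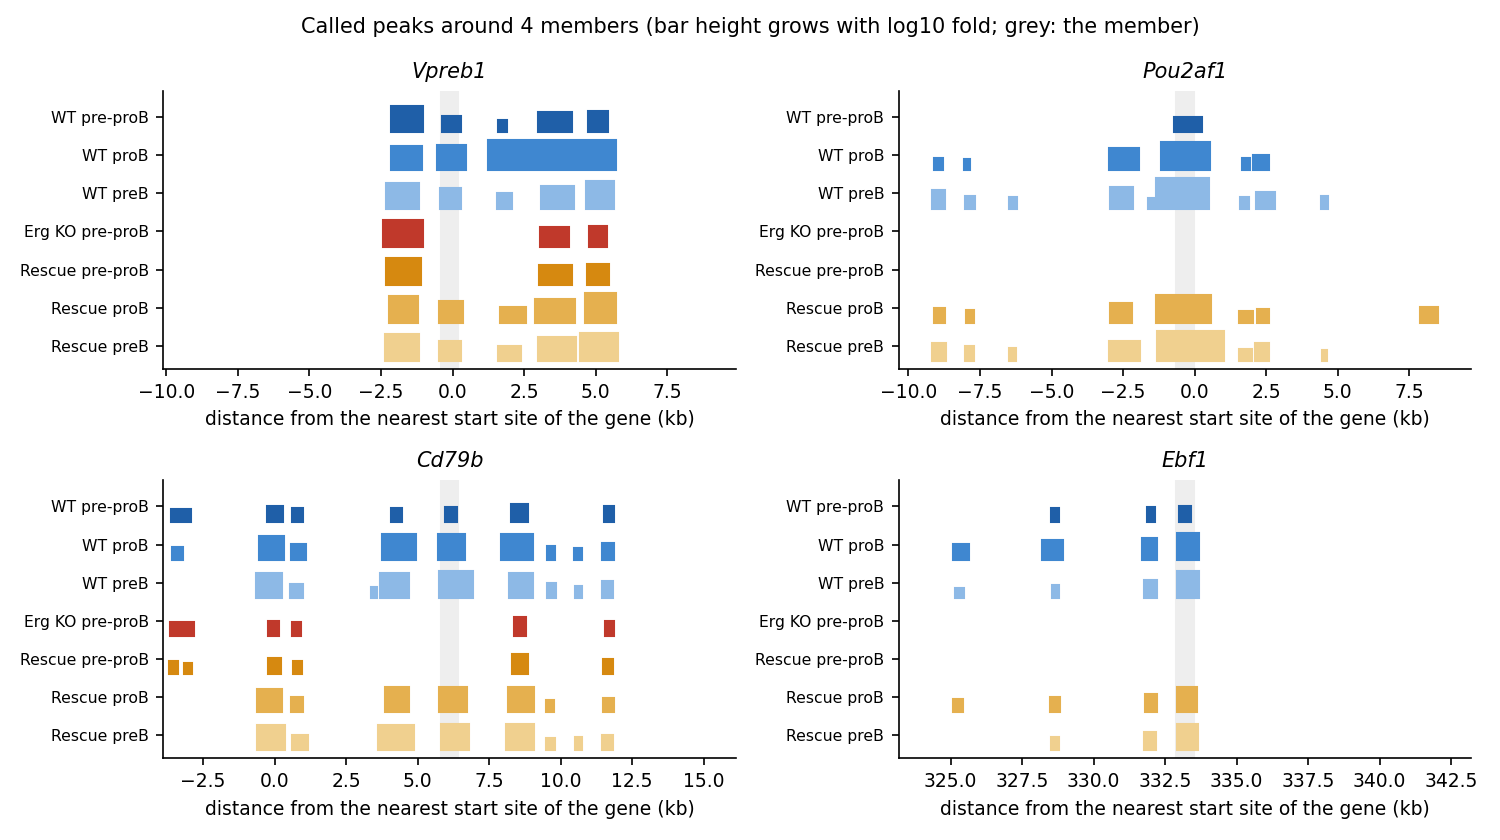
Bars are called peaks in each library (rows) within 10 kb of the member with the highest WT pre-proB score at Vpreb1, Pou2af1, Cd79b and Ebf1, by distance from the nearest start site of the gene (x axis, kb), with bar height growing with the log10 of the fold and grey marking the member's summit with 0.3 kb on each side. In the grey stripes all libraries except Erg KO and Rescue pre-proB held a peak, and at Vpreb1 the peak upstream of it was called in every library.

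The members with the highest WT pre-proB scores lay elsewhere. The first was in intron 1 of Gxylt2 (chr6:100709183-100710038), a sugar transferase that acts on Notch, with a fold of 16.7 in WT pre-proB (−log10 q 76.6), of 143 and 35.5 in WT proB and preB cells, and of 34.5 and 19.0 in those of Rescue. It was followed by members near Smarcc2, a chromatin remodelling subunit (fold 15.7), at the promoter of Bsnd, a chloride channel subunit (15.5), and near Ufm1 (15.3), Slc12a7 (15.1), Thbs1, Elof1, Cnot2 and Bdkrb1 (14.0 each) and Nup210 (13.8). All 10 had a WT proB fold of at least 89.7, and the fold in Rescue proB ranged from 10.02 near Slc12a7 to 117 near Ufm1.

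Of the 77 members at a coding promoter, the highest WT pre-proB scores after Bsnd were at Cfi, a complement protease (fold 11.05), Sorbs2, a cytoskeletal adaptor (10.1), Slc52a3, a riboflavin transporter (8.92), Vpreb1 (8.53), S100a3 (7.95), Nmur1, a neuropeptide receptor (7.56), Pou2af1 (7.37), Slc17a4 (7.17) and Izumo1r (6.40). Only Vpreb1 and Pou2af1 of these 10 are in the B-lineage lists. Slc52a3 was the tallest of them in later cells, with 125 in WT proB and 166 in Rescue preB, and S100a3 fell from 50.2 in WT proB to 9.86 in WT preB.

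Some genes held several members. Fgfr2 and Gm20388 had 6 and 5, over annotated spans of 2961 kb and 4435 kb that cover many other genes. Alpl, the tissue-nonspecific alkaline phosphatase, and Hs3st2, a heparan sulfate sulfotransferase, had 4 each in 54.7 kb and 110 kb and held no region called in all 3 pre-proB libraries. The tallest Alpl member, in intron 1 (chr4:137787879-137789451), had a fold of 12.6 in WT pre-proB, of 127 and 138 in WT proB and preB cells, and of 35.6 and 60.04 in those of Rescue. The 4 members of Hs3st2 lay in intron 1 and had WT proB folds of 65.4, 57.8, 18.5 and 39.1, beside 17.4, 6.01, 4.23 and 8.69 in Rescue proB. Each was thus lower in Rescue proB than in WT proB, as were, by rank, 89.1% of all members with both peaks. Camta1, Med13l, Trio and Zmiz1 had 4 members each, with between 19 and 28 regions called in all 3 pre-proB libraries, and Adamts7 and B3gnt2 had 3.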

How the data were processed

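ATAC-seq peak lists of 7 mouse libraries were used, 1 per group. Per the study's methods, reads were aligned to mm10 (GRCm38) with Bowtie2 and peaks called with MACS2. Versions, options, duplicate handling and end shifts were not given in the sources used here, and Picard and CASAVA 1.8.2 are named in the submitters' processing notes without a role. The methods name sonication and the labels' protocol Tn5. These choices set which low peaks were called.

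The authors deposited for each peak a score, a fold (ratio of summit pileup to background pileup, with 1 added to each), a −log10 p and a −log10 q. Folds were whole multiples of a step within 0.02 for 100% of peaks, which gave pileup and background. Read totals are not known. The members and gene lists were chosen with earlier results of these data known. Annotation was GENCODE M21 basic and sequence RefSeq GRCm38. Promoters lay within 1000 bp of a start site, overlap was at least 1 bp, and 10 patterns were searched on both strands. The genes named were those of the 4 B-lineage lists with a member, the 10 highest scores, the 10 highest at coding promoters, the 10 genes with most members and the 5 lowest scores. Sequences were those at promoters of listed genes, then 4 of the highest scores with the EBF1 pattern. Python 3.11.15, pandas 2.3.3, scipy 1.17.1 and pysam 0.24.0 were used, and the code was tested on simulated data. Alternatives were lists of equal and short length, merging, pairwise overlap, Rescue stages by source name, both Rescue stages, and other windows.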

Additional observations from a re-analysis of the deposited data

How the results depend on the processing

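Of 55 values recomputed under alternatives, 32 stayed within the interval of the value reported, or within 1.5 times for counts, and 23 did not. With the Rescue stages read from the source names, 458 regions met the rule (151 of them members), 40.2% of them had a WT preB peak, 5.68% lay at a promoter, 2.40% held the EBF1 pattern and 13.5% an ETS pattern, and 4 listed genes had one. With lists of equal length (76465 peaks), 1979 regions met the rule, of which 786 (39.7%) overlapped a member, 94.4% had a WT preB peak and 5.36% held the EBF1 pattern. Of the 1874 members, 785 (41.9%) were kept. With short lists (38232 peaks), 689 regions were left (25 overlapping a member), at 5 listed genes, of which 94.0% had a WT preB peak, 18.1% lay at a promoter and 2.18% held the EBF1 pattern. Requiring both later Rescue peaks gave 95.9% with a WT preB peak. A promoter window of 2500 bp gave 15.6% at a promoter, and pattern windows of 50 and 200 bp gave 5.12% and 10.46% with EBF1 and 7.26% and 15.96% with ETS. For these settings the cause was not tested, other than that wider windows hold more bases and shorter lists fewer low peaks.

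Members at least 2 times as tall as the lowest peaks of both Erg-deficient pre-proB libraries numbered 815, at 10 listed genes, and 98.3% had a WT preB peak and 10.8% the EBF1 pattern. This setting, and leaving out members with an Erg-deficient pre-proB peak within 1000 bp, which kept 1523, were chosen after seeing the data. No paired analysis was possible because each group had 1 library. Depth limits what an absent peak means: the lowest summit called held 10 to 12 fragments, and the median WT pre-proB summit of the members held 21.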

Other observations

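A further 518 regions had peaks in WT pre-proB and WT proB, in neither Erg-deficient pre-proB library and in no later Rescue library, and so were called in WT libraries alone. Their E protein pattern share at the WT proB summit was 31.3% (27.4 to 35.4), beside 26.9% (24.99 to 29.0) in the members, and their ETS share was 13.7% (11.01 to 16.9). The EBF1 pattern was present in 3.67% (2.36 to 5.66) of them, beside 8.59% (7.41 to 9.95) of the members, and the Oct pattern in 1.54% (0.785 to 3.02), beside 4.59% (3.73 to 5.63). The last 2 pairs of intervals did not overlap. WT proB height was not matched in these shares.

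Regions called in WT pre-proB and in just 1 Erg-deficient pre-proB library were fewer, with 502 for Erg KO and 822 for Rescue, and held the EBF1 pattern outside promoters in 1.97% (1.04 to 3.71) and 2.94% (1.95 to 4.41), beside 8.68% (7.44 to 10.1) of the members. These regions were lower in WT proB (median fold 6.46, beside 27.5), and members with a WT proB pileup of up to 25 and of 25 to 50 fragments held the pattern in 1.66% and 2.76%. Among members with the EBF1 pattern, 8 of 154 (5.19%, 2.66 to 9.92) also held the ETS-IRF composite, beside 1.57% (1.08 to 2.27) of those without it. An EBF1 match followed by A already holds the GGAA of the composite, and the part of shared bases was not tested. Of the patterns compared this way, no other pair of intervals lay apart. The ETS and E protein shares were 9.09% and 26.0% with the EBF1 pattern and 12.1% and 26.2% without it, with overlapping intervals.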
